A study of Rattus norvegicus with 30 samples.

Results

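The GDNF family comprises 4 secreted ligands, GDNF, neurturin (NRTN), artemin (ARTN) and persephin (PSPN), 4 binding receptors, GFRA1 to GFRA4, and the shared signalling receptor RET. All 9 genes were on the array, and the 16 probes whose gene name in the scanner files was one of theirs were followed out of 41012 non-control probes, as 9 of 15874 named genes. RNA was taken from adult male Sprague-Dawley rats in which a segment of the left sciatic nerve had been removed, at 0, 1, 4, 7 and 14 d, from the proximal sciatic nerve (SN, 0.5 cm) and from the dorsal root ganglia (DRG) of the segments L4-6. Each tissue and day had 3 arrays of a single colour (Cy3), 30 arrays in all, and the 0 d arrays were the controls. The labels name no transgene and no further treatment. Per the study's methods the 3 nerve arrays of a day are biological replicates, whereas the number of rats behind an array and the origin of the ganglion replicates are not given in the sources used here, so that p-values for the ganglia measure the spread between arrays, which may be technical. Levels are given as the normalized signal, the log2 of the scanner's processed intensity minus the 75th percentile of its array, so that a difference of 1 is a 2-fold change. Levels of different probes are not comparable, because probes bind with different strength.

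GDNF family ligands bind as dimers to GFRA proteins, which are held on the cell surface by a lipid anchor and have no kinase of their own, and the complex activates the tyrosine kinase RET. The preferred pairs are GDNF with GFRA1, neurturin with GFRA2, artemin with GFRA3 and persephin with GFRA4. The family is known for keeping sensory, motor and autonomic neurons alive. In peripheral nerves, GDNF is known as a factor that Schwann cells, the glia of the nerve, supply to axons after injury, while GFRA3 and RET are known as receptors of small sensory neurons.

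The array carried 2 probes of Gdnf (NM_019139), and each was followed on its own. In the rn4 build used by the array annotation, the upstream probe lies at chr2:57403890-57403949 on the plus strand, at position 114 of the transcript, and was printed in 1 spot. The downstream probe lies at chr2:57423845-57423904 on the plus strand, at position 514, and was printed in 10 spots. The gap between them in the genome is much longer than in the transcript, so that an intron separates them. These sequences are shown because the pair gave different results in the ganglia, and capitals mark runs of 4 or more G or C.
Gdnf upstream probe: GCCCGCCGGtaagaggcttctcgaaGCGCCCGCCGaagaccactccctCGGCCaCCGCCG
Gdnf downstream probe: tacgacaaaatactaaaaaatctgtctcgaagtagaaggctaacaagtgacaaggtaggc
The upstream probe held 4 such runs and 73.3% G and C, and the downstream probe held 0 runs and 38.3%. The array annotation pairs the upstream probe with 1 Ensembl transcript and the downstream probe with 2.

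Artn (NM_053397) had 2 probes on chromosome 5, minus strand, at 138391594 to 138391653 (upstream, position 658) and at 138391381 to 138391440 (downstream, position 871). Their sequences are shown because with all arrays a single one of them was called in the ganglia although both hold 66.7% G and C, and capitals again mark runs of 4 or more G or C.
Artn upstream probe: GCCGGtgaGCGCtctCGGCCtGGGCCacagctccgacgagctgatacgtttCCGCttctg
Artn downstream probe: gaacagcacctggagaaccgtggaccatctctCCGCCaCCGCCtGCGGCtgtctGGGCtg
Ret had 4 probes on chromosome 4, minus strand, numbered here from the 5' end of the gene. Ret 1, at 154468435 to 154468494 (position 1823), is listed for both RefSeq transcripts, NM_012643 and NM_001110099. Ret 2, at 154460013 to 154460072 (position 2753), is listed for the mRNA AJ299017 and for neither RefSeq transcript. Ret 3 (NM_001110099, 154451073 to 154451132) and Ret 4 (NM_012643, 154448221 to 154448280) each belong to 1 of the RefSeq transcripts and hold a stop codon in every reading frame of their strand. The sequences of Ret 1 and Ret 2 are shown because they and the other two gave different results in the nerve.
Ret 1 probe: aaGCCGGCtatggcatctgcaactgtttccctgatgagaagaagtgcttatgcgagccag
Ret 2 probe: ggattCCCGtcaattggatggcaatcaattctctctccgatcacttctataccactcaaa
Gfra1 and Gfra3 had 2 probes each, and Nrtn, Pspn, Gfra2 and Gfra4 had 1 each.

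For 8 of the 9 genes RefSeq promoters were at hand (build GRCr8), and the 250 bases before the start were searched on both strands. That of Gdnf, the member with the largest rise at 1 d in the nerve, lies at chr2:58621077-58621326 on the plus strand. Capitals mark its single match to TATAAA, which begins 30 bases before the start.
Gdnf promoter: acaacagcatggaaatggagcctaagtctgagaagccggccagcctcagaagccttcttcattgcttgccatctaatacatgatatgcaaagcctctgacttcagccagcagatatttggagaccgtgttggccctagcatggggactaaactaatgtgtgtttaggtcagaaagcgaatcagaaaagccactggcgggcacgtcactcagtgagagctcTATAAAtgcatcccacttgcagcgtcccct
TATAAA stood in 12.9% of all 33469 promoters of this length and in 1 of the 8 members. The AP-1 motif TGANTCA (6.3% of promoters) and the CRE motif TGACGTCA (1.6%) stood in 0 of the 8, and GGGCGG (30.5%) stood in Artn, Gfra1 and Gfra3. A match is a description of the letters, and a missing match says only that these letters are not in this window.

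In the nerve, Gdnf rose, Nrtn and Ret fell, and Gfra3 rose late. Calls were made with limma and needed more than 2-fold change and, after Benjamini-Hochberg adjustment over all tested probes, a p under 0.05. At 1 d, 4 of the 16 family probes were called, where 22.1% of all tested probes were. The number was 5 at 4 d (22.7% of all probes), grew to 7 on day 7 (24.9%) and reached 9 on day 14 (19.8%). These probes belonged to 3 of the 9 genes on days 1 and 4, to 4 genes on day 7 and to 5 on day 14. The downstream Gdnf probe is counted on each of these days, although no nerve array of 0 d showed it well above background. Over the tested family probes the median log2 change against 0 d was 0.32, 0.54, 0.72 and 0.47 at 1, 4, 7 and 14 d, and over all tested probes 0.11, 0.15, 0.15 and 0.16. In the ganglia 15 family probes were tested, and at 1 d 0 of them were called (7.6% of all probes), although 7 had an unadjusted p under 0.05, and the methods' t-test called 0 too. Later 3 probes were called on day 4 (6.55% of all probes, 6.04% higher), 2 on day 7 (6.91%, 6.58% higher) and 3 on day 14 (13.5%, 13% higher), all of them higher than before injury. Between successive days, 4 calls fell on the nerve (8.53%, 2.6% and 1.65% of all probes from 1 d to 4 d, 4 d to 7 d and 7 d to 14 d). In the ganglia limma called 0 (4.27%, 0.177% and 0.0972%), although 9, 3 and 4 family probes had an unadjusted p under 0.05, and the methods' t-test also called 0, before and after adjustment. Quantile normalization moved the median of all tested probes by -0.19 to -0.11 in these 8 comparisons and the share of higher calls from 84.5% to 62.9% at 1 d in the nerve and from 96.6% to 73.0% at 14 d in the ganglia, and of these 33 family calls it lost 1, Gfra1 upstream at 4 d in the ganglia. Each comparison with 0 d in a tissue uses the same 3 control arrays, so that they depend on one another. In whole tissue, fewer cells of a type and less RNA per cell cannot be told apart.

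**Figure D1:**
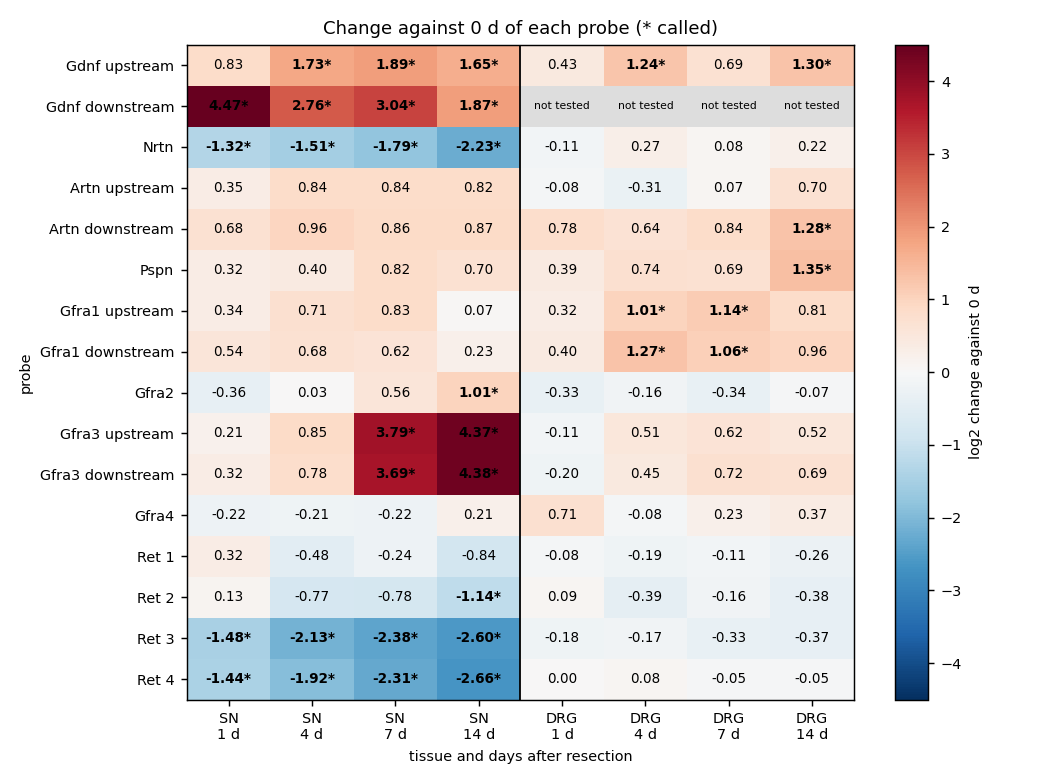
Log2 change against 0 d of each of the 16 probes (rows) in the sciatic nerve (SN) and dorsal root ganglia (DRG) at 1, 4, 7 and 14 d (columns), coloured from blue (lower) to red (higher), with an asterisk where the probe was called. Calls in the nerve lie on Gdnf and Gfra3 (higher), on Nrtn and Ret (lower) and once on Gfra2, and those in the ganglia on Gdnf, Artn, Pspn and Gfra1, all higher.

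Gdnf, the founding ligand, was the member with the largest change at 1 d in the nerve. On the downstream probe, the SN arrays of 0 d stood at -8.45, -8.07 and -8.24, and 0 of them were well above background. At 1 d they stood at -3.76, -3.88 and -3.69, the 4 d arrays at -5.42, -5.40 and -5.66, the 7 d arrays at -5.32, -5.18 and -5.12, and the 14 d arrays at -6.31, -5.81 and -7.01, the last of which was not well above background. The 1 d arrays were the highest and did not overlap with those of any other day. The fitted change at 1 d was 4.47. Its p-value is not given, because the 0 d values lay in the background and the probe entered the test through later days alone. Since the 0 d arrays hold only a bound, the rise is about 6.18-fold or more with this processing. That bound uses the lowest signal well above background on each array and is approximate. On SN 14 d replicate 3 the probe missed the flag at -7.01, above that lowest signal of -7.11. Between 1 d and 4 d the level fell by 1.72 ± 0.23 on the log2 scale (SE, adjusted p = 0.000181), and between 7 d and 14 d it fell by 1.17 ± 0.23 (adjusted p = 0.0085), the latter without a call when SN 14 d replicate 3 was left out (-0.85), in a fit of the 6 arrays compared (adjusted p = 0.0649) and in the methods' t-test after adjustment. The fitted size depends on how the background is handled, since after normexp correction and quantile normalization the changes at 4, 7 and 14 d were 0.44, 0.50 and 0.22 and were not called, and after normexp and the 75th percentile that of 1 d was 1.03 and missed the call too. The fall from 1 d to 4 d was not called under either setting, with -0.68 and -0.43, and the rise at 14 d was also not called with the deposited log2 values (0.96). The repeat spots gave the same picture within each array. At 1 d all 10 spots were well above background on each array, with an SD between spots of 0.06 to 0.08, at 0 d 0 of 10 were, and at 14 d 9, 10 and 3 of 10.

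The upstream probe of Gdnf was bright on all arrays and had another course. Its levels in the nerve were -1.66, -1.82 and -1.92 on the 0 d arrays, -0.84, -1.05 and -1.0 on those of 1 d, -0.10, 0.14 and -0.24 on those of 4 d, 0.11, 0.32 and -0.14 on those of 7 d, and -0.09, -0.10 and -0.25 on those of 14 d. All later arrays lay above those of 0 d, with no overlap, and the highest mean was that of 7 d rather than 1 d. The change at 1 d was 0.83 ± 0.13 (adjusted p = 0.000154), below the fold threshold. The rises at 4, 7 and 14 d were 1.73, 1.89 and 1.65 (SE 0.13), with adjusted p = 4.55e-07, 2.49e-07 and 1.08e-06. Between 1 d and 4 d, when the downstream probe fell, the upstream probe changed by 0.90 ± 0.13, in the other direction.

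In the ganglia, the downstream probe of Gdnf was not well above background on any of the 15 arrays, with 0 of 10 spots on each, and it was not tested. The upstream probe stood there at -1.02, -0.99 and -1.39 at 0 d, at -0.75, -1.03 and -0.32 at 1 d, at -0.44, 0.42 and 0.36 at 4 d, at -0.27, -0.78 and -0.30 at 7 d, and at 0.45, -0.06 and 0.11 at 14 d. The arrays of 4, 7 and 14 d did not overlap with those of 0 d. The probe rose by 1.24 ± 0.25 at 4 d (adjusted p = 0.00411) and by 1.30 ± 0.25 at 14 d (adjusted p = 0.00197). The rise at 4 d was not called against DRG 0 d replicate 1 alone (1.14), the 0 d array that shared its slide with the nerve arrays, a comparison added after the data were seen in which the other groups give the spread. Probes rich in G and C had positive median changes on all days. In the ganglia, the 155 tested probes with 70% or more had medians of 0.33, 0.37, 0.38 and 0.51 at 1, 4, 7 and 14 d. In the nerve they had 0.46, 0.51, 0.67 and 0.53. The upstream Gdnf probe changed by 0.69 at 7 d in the ganglia, less than at 4 d, while the median of this class was about the same. Probes under 40% had medians of 0.13, 0.17, 0.03 and 0.07 at 1, 4, 7 and 14 d in the ganglia. With quantile normalization, the medians of the class rich in G and C were 0.12, 0.19, 0.22 and 0.24 on these days in the ganglia. The part of base composition in the rise of the upstream probe was not tested.

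**Figure D2:**
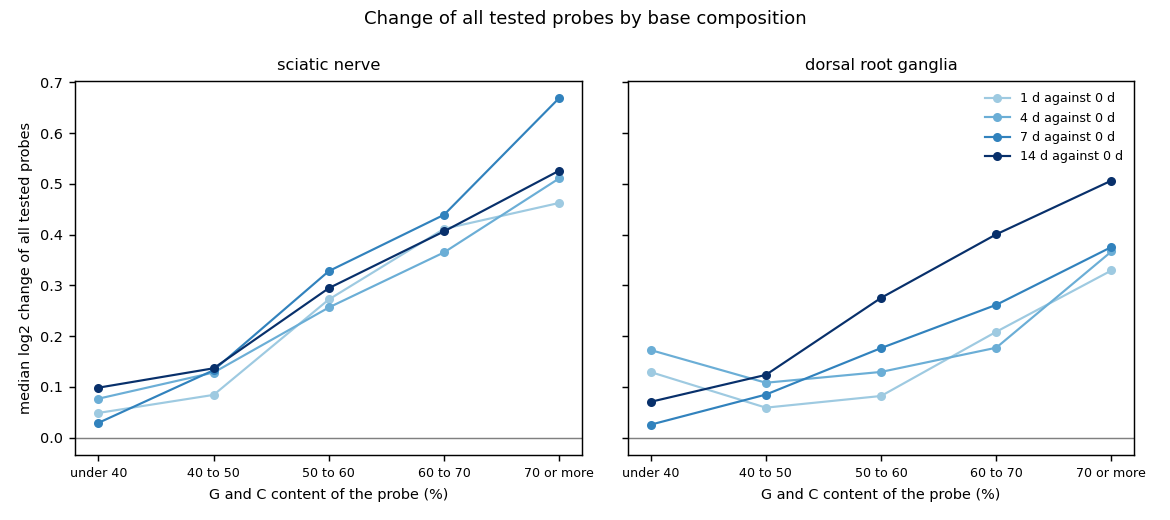
Median log2 change against 0 d of all tested probes (vertical axis) in 5 classes of G and C content (horizontal axis, percent), with a line for each day, in the nerve (left) and the ganglia (right). In the nerve the medians go from 0.03 to 0.10 under 40% up to 0.46 to 0.67 at 70% or more, and in the ganglia the class of 70% or more has the highest median on each day.

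Nrtn encodes neurturin, the ligand that prefers GFRA2. In the nerve it stood at 1.82, 1.95 and 2.20 at 0 d, at 0.61, 1.04 and 0.36 at 1 d, at 0.56, 0.40 and 0.47 at 4 d, at 0.31, 0.16 and 0.13 at 7 d, and at -0.46, -0.13 and -0.14 at 14 d. All 12 later arrays lay below the 3 arrays of 0 d. Nrtn fell, with log2 changes of -1.32, -1.51, -1.79 and -2.23 at 1, 4, 7 and 14 d (SE 0.16), with adjusted p = 2.45e-05, 6.23e-06, 1.71e-06 and 5.53e-07. In the ganglia the levels were lower and flat, between -0.61 and 0.35 on all 15 arrays, and the changes of -0.11, 0.27, 0.08 and 0.22 were not called. By 14 d the nerve had come down to the ganglion level, with a difference on the slide that held 1 nerve and 3 ganglion arrays of -0.08.

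Artn encodes artemin, the ligand of GFRA3. In the nerve its downstream probe stood at -1.43, -1.42 and -1.36 at 0 d and above this on all later arrays, which lay between -0.75 and -0.20 without overlap. The changes of 0.68, 0.96, 0.86 and 0.87 at 1, 4, 7 and 14 d stayed under the 2-fold threshold, and those of the upstream probe were 0.35, 0.84, 0.84 and 0.82. In the ganglia the downstream probe stood at -2.91, -2.31 and -2.36 at 0 d and at -1.45, -1.16 and -1.13 at 14 d. These groups did not overlap, and the rise was 1.28 ± 0.25 (adjusted p = 0.00202). The upstream probe was dim in the ganglia and spread widely, with -5.96, -5.99 and -4.42 at 0 d and -5.17, -5.28 and -3.84 at 14 d, so that the groups overlapped and its change of 0.70 was not called. Without DRG 0 d replicate 3, the array at -4.42, this change was 1.21 and was called (adjusted p = 0.0175). The tested probes with 60 to 70% G and C, the class of both Artn probes, had a median change of 0.40 at 14 d in the ganglia.

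Pspn encodes persephin, the ligand of GFRA4. In the ganglia it stood at -3.34, -3.32 and -3.46 at 0 d, at -2.85, -3.03 and -3.05 at 1 d, at -2.82, -2.60 and -2.49 at 4 d, at -2.38, -2.83 and -2.85 at 7 d, and at -2.05, -2.07 and -1.93 at 14 d. All later arrays lay above the controls, with the 14 d arrays highest. The changes were 0.39, 0.74 and 0.69 at 1, 4 and 7 d, under the fold threshold, and the rise at 14 d was 1.35 ± 0.13 (adjusted p = 1.70e-05). In the nerve the changes were 0.32, 0.40, 0.82 and 0.70 with no call, and 1 array of 14 d stood at -1.86 while the other two stood at -3.0 and -2.86. The 3 ganglion arrays of 14 d lay on slide 3 together with the nerve array at -1.86, whereas the other two nerve arrays of 14 d lay on slide 4 with the ganglion arrays of 7 d at -2.83 and -2.85. Within a slide, nerve and ganglia of the same day differed by -0.10 to 0.16. Slide and day cannot be told apart in the rise of Pspn at 14 d. The probe holds 55.0% G and C, a class with a median change of 0.28 at 14 d in the ganglia. After normexp correction and quantile normalization, the changes at 14 d of the downstream Artn probe (0.93) and Pspn (0.82) were not called.

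**Figure D3:**
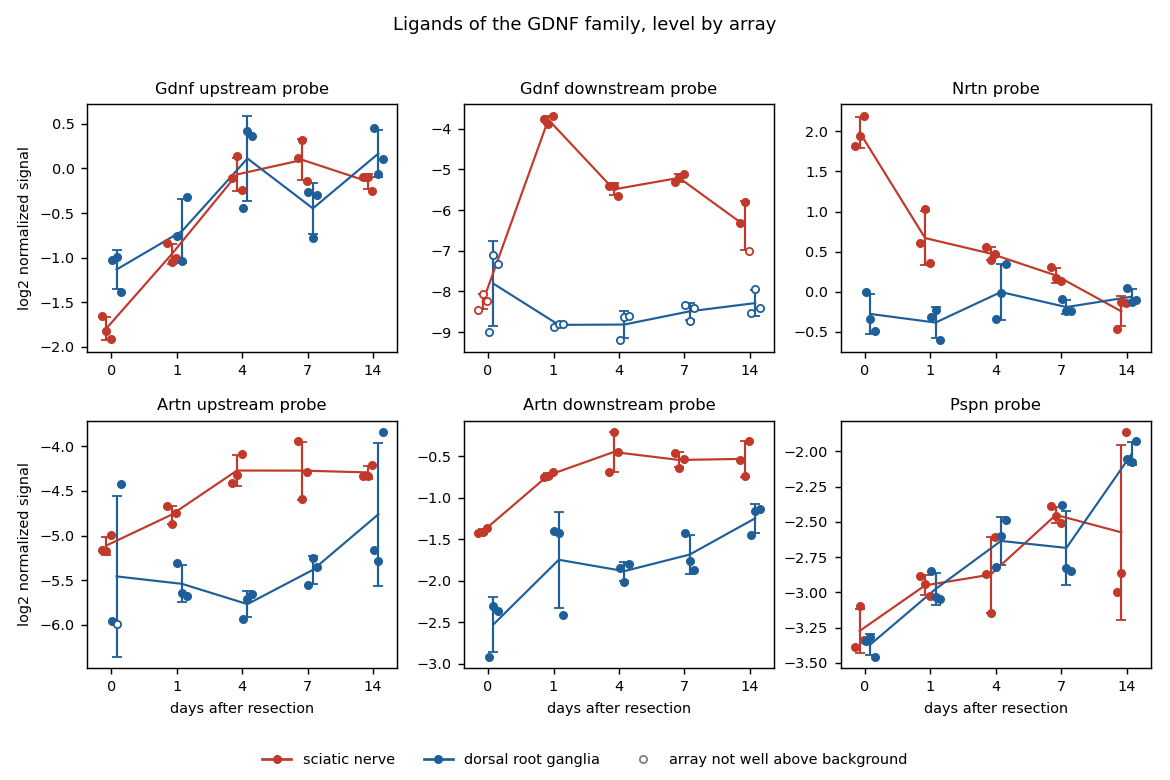
Normalized signal (log2, vertical axes, each with its own scale) of the 6 ligand probes against days after resection, for the nerve (red) and the ganglia (blue). Points are arrays, open where the probe was not well above background, and lines join the means with bars of 1 SD over 3 arrays. The downstream Gdnf probe is open on all ganglion arrays and peaks in the nerve at 1 d, and Nrtn comes down in the nerve to the ganglion level.

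Gfra1 encodes the receptor that GDNF prefers. In the ganglia, its downstream probe stood at 4.28, 4.26 and 4.29 at 0 d, at 4.63, 4.68 and 4.72 at 1 d, at 5.23, 5.60 and 5.81 at 4 d, at 5.31, 5.36 and 5.32 at 7 d, and at 5.43, 5.13 and 5.16 at 14 d. All 12 later arrays lay above the controls. The rise was 1.27 ± 0.13 at 4 d (adjusted p = 3.24e-05) and 1.06 ± 0.13 at 7 d (adjusted p = 0.000123), and the changes of 0.40 at 1 d and 0.96 at 14 d were under the threshold. The upstream probe gave 1.01 ± 0.10 at 4 d (adjusted p = 2.08e-05) and 1.14 ± 0.10 at 7 d (adjusted p = 6.78e-06), so that both probes passed on the same days. The call of the upstream probe at 4 d lies at the fold threshold and was lost under quantile normalization and without DRG 4 d replicate 1 or DRG 0 d replicate 2. In the nerve, Gfra1 changed by 0.34 to 0.83 on the upstream probe and by 0.54 to 0.68 on the downstream probe from 1 d to 7 d, and by 0.07 and 0.23 at 14 d, with no call.

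Gfra2 encodes the receptor of neurturin. In the nerve it stood at 2.08, 2.49 and 2.41 at 0 d, at 1.89, 2.12 and 1.90 at 1 d, at 2.23, 2.47 and 2.36 at 4 d, at 2.81, 3.0 and 2.85 at 7 d, and at 3.34, 3.17 and 3.49 at 14 d. The arrays of 7 d and 14 d lay above all controls. The rise at 14 d was 1.01 ± 0.12 (adjusted p = 2.89e-05), at the edge of the fold threshold, and was not called without SN 0 d replicate 1 (0.89) or SN 14 d replicate 3. In the ganglia Gfra2 lay between 2.46 and 3.0 on all arrays, with changes of -0.33, -0.16, -0.34 and -0.07.

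Gfra3 encodes the receptor of artemin and rose late in the nerve. Its downstream probe stood at -2.11, -2.0 and -2.13 at 0 d, at -1.75, -1.77 and -1.77 at 1 d, at -1.38, -1.24 and -1.27 at 4 d, at 1.52, 1.61 and 1.71 at 7 d, and at 2.61, 2.03 and 2.25 at 14 d. The step lies between 4 d and 7 d, where the arrays of a day differed by far less than the days did. The upstream probe went from -4.38, -4.06 and -4.62 at 0 d to -0.57, -0.57 and -0.56 at 7 d and 0.29, -0.25 and -0.00 at 14 d. At 7 d the rise was 3.79 ± 0.14 on the upstream probe and 3.69 ± 0.12 on the downstream probe (adjusted p = 6.78e-09 and 2.34e-09), and at 14 d 4.37 and 4.38 (adjusted p = 4.55e-09 and 2.97e-09), 20.6-fold and 20.8-fold. From 4 d to 7 d, a comparison without the 0 d arrays in which 2.6% of all probes were called, the probes rose by 2.94 and 2.91 (adjusted p = 1.74e-06 and 4.73e-07). In the ganglia both probes were far higher from the start, with 2.67, 2.51 and 2.54 at 0 d on the downstream probe and 3.07, 3.34 and 3.37 at 14 d. These groups did not overlap, and the changes from 0 d were between -0.20 and 0.72 over both probes and all days, with no call. The level in the nerve thus drew near to that in the ganglia, and on shared slides the difference between nerve and ganglia on the downstream probe was -4.75, -4.20, -4.30, -1.74 and -1.01 on days 0, 1, 4, 7 and 14.

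Gfra4, whose product binds persephin, was dim in both tissues. It lay between -5.03 and -4.23 on the nerve arrays and between -5.77 and -4.47 on the ganglion arrays, where 2 of the 3 arrays of 0 d were not well above background. Its changes against 0 d ranged from -0.22 to 0.21 in the nerve and from -0.08 to 0.71 in the ganglia, and 0 of the 8 were called.

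**Figure D4:**
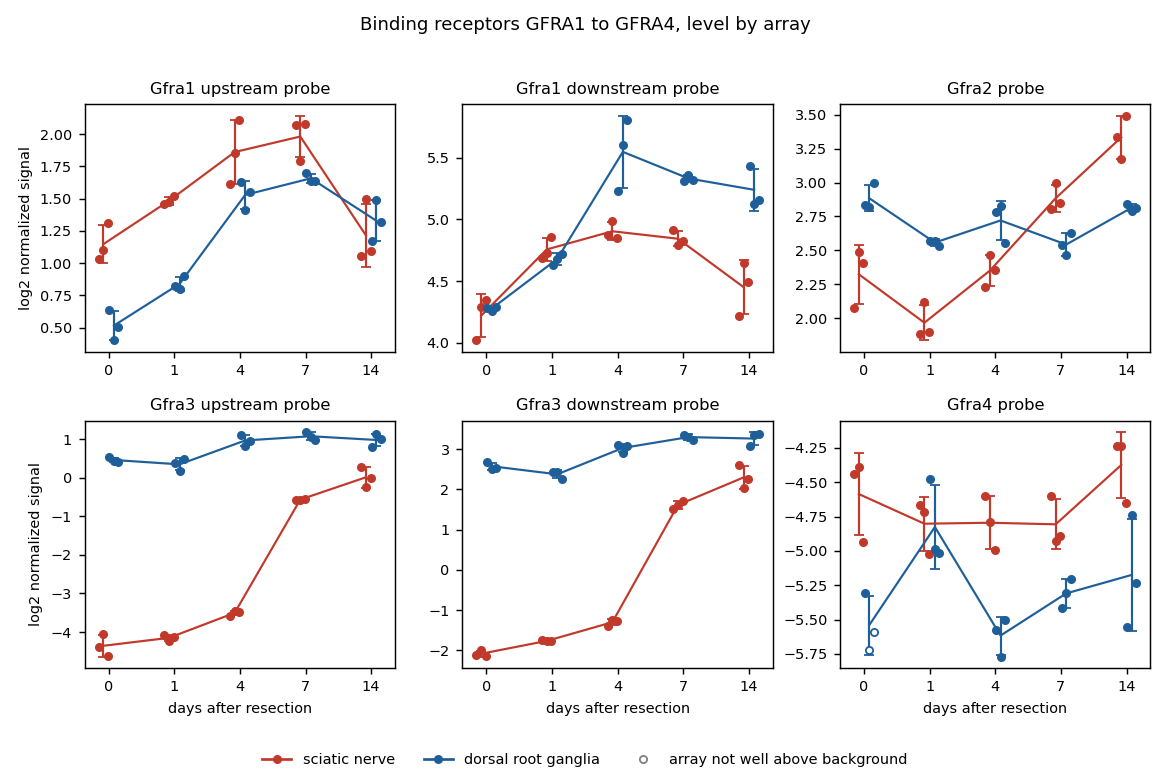
Normalized signal (log2, vertical axes, each with its own scale) of the 6 Gfra probes against days after resection, for the nerve (red) and the ganglia (blue). Points are arrays, open where the probe was not well above background, and lines join the means with bars of 1 SD over 3 arrays. Both Gfra3 probes step up in the nerve between 4 d and 7 d, and both Gfra1 probes are above their 0 d level in the ganglia at 4 d and 7 d.

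Ret encodes the receptor kinase that all 4 ligands share. In the nerve, Ret 3 stood at 2.09, 2.23 and 2.04 at 0 d, at 0.72, 0.83 and 0.38 at 1 d, at -0.01, -0.02 and 0.01 at 4 d, at -0.20, -0.45 and -0.13 at 7 d, and at -0.56, -0.29 and -0.58 at 14 d. Ret 4 stood at 2.20, 2.31 and 2.42 at 0 d, at 0.97, 1.17 and 0.48 at 1 d, at 0.36, 0.41 and 0.40 at 4 d, at 0.16, -0.14 and -0.02 at 7 d, and at -0.59, -0.09 and -0.38 at 14 d. On both probes the controls lay above all 12 later arrays, and the largest step was the one from 0 d to 1 d. Ret 3 fell, with log2 changes of -1.48, -2.13, -2.38 and -2.60 at 1, 4, 7 and 14 d (SE 0.12, adjusted p = 1.99e-06, 8.79e-08, 4.58e-08 and 4.93e-08). Ret 4 fell too, with -1.44, -1.92, -2.31 and -2.66 (SE 0.16, adjusted p = 1.77e-05, 1.30e-06, 3.42e-07 and 2.15e-07).

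The other two Ret probes were dimmer in the nerve and moved less. Ret 2 stood at -3.54, -3.90 and -3.72 at 0 d, at -3.62, -3.38 and -3.78 at 1 d, and at -4.90, -4.91 and -4.77 at 14 d. It overlapped with the controls at 1 d, with a change of 0.13, and fell by 1.14 ± 0.15 at 14 d (adjusted p = 6.18e-05). Ret 1 stood between -5.80 and -5.30 at 0 d and at -6.77, -6.55 and -5.91 at 14 d, the first of these not well above background, and its changes of 0.32, -0.48, -0.24 and -0.84 were not called. With quantile normalization and with the deposited log2 values, Ret 1 was called at 14 d (-1.38 and -1.41) and Ret 2 at 4 d and 7 d, while Ret 2 at 14 d was 0.03 with normexp and the 75th percentile. The 1 d difference between the probes was thus a fall of more than 2-fold on Ret 3 and Ret 4 beside small positive values on Ret 1 and Ret 2. Whether the probes differ among themselves was not tested.

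In the ganglia, Ret was higher than in the nerve and changed little. Ret 4 lay between 5.44 and 5.84, Ret 3 between 4.79 and 5.26, Ret 2 between -0.80 and 0.28 and Ret 1 between -2.16 and -1.28 on all 15 arrays, and the changes of the 4 probes ranged from -0.39 to 0.09, all under the fold threshold. On Ret 3 the 12 later arrays lay below those of 0 d, with changes of -0.33 at 7 d and -0.37 at 14 d (adjusted p = 0.00727 and 0.00232). Before injury the nerve was below the ganglia, with a difference of -4.01 ± 0.20 (SE) on Ret 1, -3.65 ± 0.18 on Ret 2, -3.11 ± 0.10 on Ret 3 and -3.29 ± 0.14 on Ret 4 (adjusted p from 7.05e-18 to 3.24e-14).

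**Figure D5:**
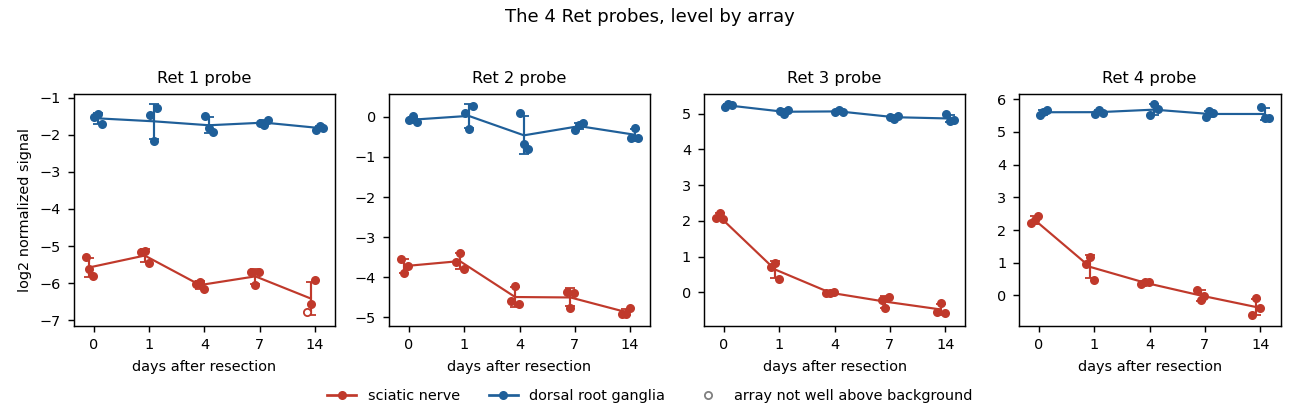
Normalized signal (log2, vertical axes, each with its own scale) of the 4 Ret probes against days after resection, for the nerve (red) and the ganglia (blue). Points are arrays, open where the probe was not well above background, and lines join the means with bars of 1 SD over 3 arrays. Ret 3 and Ret 4 go down in the nerve from 0 d on, Ret 1 and Ret 2 lie near their 0 d level at 1 d, and the ganglion level changes by -0.39 to 0.09.

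Before injury, 8 of the 16 family probes were called between the tissues by adjusted p and fold, where 36.2% of all tested probes were. Nrtn was higher in the nerve by 2.27 ± 0.17 (adjusted p = 3.36e-11) and the downstream Artn probe by 1.12 ± 0.20 (adjusted p = 3.71e-05). Gfra3 was lower in the nerve, with -4.81 ± 0.13 and -4.66 ± 0.11 (adjusted p = 2.42e-19 and 1.72e-20), as were the 4 Ret probes. The 2 ligand probes called were higher in the nerve, and the 6 receptor probes called, all of Gfra3 and Ret, were higher in the ganglia. Other members did not follow this split. The upstream Gdnf probe, of a ligand, had a lower mean in the nerve (-1.80 against -1.13) and was not called. Gfra4, a receptor, had a higher mean in the nerve (-4.59 against -5.54) and was called only under some settings, such as the deposited log2 values (1.01). Gfra1 differed by 0.63 and -0.06 on its probes and Gfra2 by -0.56, under the threshold. On slide 1, which held all 3 nerve arrays and 1 ganglion array of 0 d, the differences were 1.99 for Nrtn, 1.51 for the downstream Artn probe, -4.75 for the downstream Gfra3 probe and -3.22 for Ret 4.

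Whether a change since 0 d differed between the tissues was tested by the interaction in 1 fit of all 30 arrays, at an adjusted p under 0.05 with no fold threshold. Of the 16 family probes, 6 differed on day 1 (34.5% of all probes), 6 on day 4 (44%), 8 on day 7 (36.9%) and 10 on day 14 (31.1%). Nrtn, Ret 3, Ret 4 and the downstream Gdnf probe were among them on all 4 days, both Gfra3 probes at 7 d and 14 d, and Gfra2 at 7 d and 14 d. Gfra1 went the other way, with a larger rise in the ganglia at 14 d on both probes (nerve minus ganglia -0.74 and -0.73, adjusted p = 0.00227 and 0.00217). For Ret 3, the nerve minus ganglion difference on shared slides went from -3.07 before injury to -4.42, -5.05, -5.17 and -5.44 on days 1, 4, 7 and 14. For Ret 4 it went from -3.22 to -4.68, -5.28, -5.44 and -5.93. With slide as a fixed term, added after the data were seen, 9 of these differences no longer passed. They were Nrtn (-1.0), the downstream Gfra3 probe (0.55) and Gfra4 (-1.04) at 1 d, and the upstream Artn probe (0.84) and the downstream Gfra1 probe (-0.64) at 4 d. The later ones were the upstream Gdnf probe at 7 d (1.14), and the downstream Gdnf probe (0.53), the downstream Gfra1 probe (-0.69) and Ret 2 (-0.69) at 14 d. The downstream Gdnf probe has no measured ganglion change, because it was not well above background there. It entered this fit through nerve groups alone, so its place in these counts rests in part on background values.

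Other genes of the pathway were followed in lists. Of 5 measured alternative receptors and regulators, Gdf15, a stress-induced ligand of the distant receptor GFRAL, rose in the nerve on all 4 days, by 2.42, 2.89, 2.03 and 1.42 (adjusted p = 3.97e-07, 6.14e-08, 7.01e-07 and 1.69e-05). Ncam1, an adhesion molecule that also serves as a GDNF receptor, rose by 1.29 at 7 d in the nerve and fell by 1.06 at 14 d in the ganglia. Sorl1, a sorting receptor of GDNF, fell in the ganglia, with -1.11 at 4 d and -1.12 at 14 d. In the nerve 1, 1, 2 and 1 of the 5 were called at 1, 4, 7 and 14 d, all higher. Of all tested probes 22.1%, 22.7%, 24.9% and 19.8% were called on these days. In the ganglia 1 was called at 4 d and 2 at 14 d, all lower (6.55% and 13.5% of all tested probes). Over this list the median change in the nerve was -0.28, -0.44, -0.02 and 0.03 at 1, 4, 7 and 14 d. Of 17 measured RET adaptors and effectors, 3 rose and 1 fell in the nerve at 1 d, where 22.1% of all tested probes were called, with a list median of -0.12. In the ganglia 1 in all was called over the 4 days, Grb7 at 1 d (1.05, adjusted p = 0.0116). Of all tested probes there, 7.6%, 6.55%, 6.91% and 13.5% were called at 1, 4, 7 and 14 d. In the nerve 1, 2 and 1 of the 17 rose and 2, 1 and 2 fell at 4, 7 and 14 d. Of all tested nerve probes 22.7%, 24.9% and 19.8% were called on these days. The docking protein Dok1 rose by 1.16, 2.27, 2.43 and 2.10 in the nerve at 1, 4, 7 and 14 d, and its relative Dok4 fell, with -1.22, -1.68, -1.98 and -1.50. Of 6 measured feedback and target genes of receptor tyrosine kinases, 0, 2, 0 and 1 were called in the nerve at 1, 4, 7 and 14 d. The transcription factor Etv4 rose there by 1.24 at 4 d and 1.53 at 14 d, and the phosphatase Dusp6 by 1.05 at 4 d. In the ganglia 1 was called at 7 d (6.91% of all tested probes), Spry4, a feedback inhibitor, which fell by 1.01. The list medians in the nerve were 0.31, -0.16, -0.20 and 0.01 at 1, 4, 7 and 14 d.

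The probes with the most similar course were looked up over the 15 arrays of a tissue by Pearson's r among 18523 probes with a gene symbol in the nerve and 18381 in the ganglia, and each gene was named once. These are descriptions, since the arrays of a day share slides and a shared course over 5 days gives a high r. Among the nearest to the downstream Gdnf probe in the nerve were Or10p22 (r = 0.98), an olfactory receptor, and Muc4 (r = 0.98). Nearest to the upstream probe was Gpr18 (r = 0.98), followed by the neurotrophin receptor Ngfr (r = 0.98). Both Gfra3 probes had Pou3f1, a transcription factor of Schwann cells that precede myelination, as the nearest (r = 0.98). Ret 3 and Ret 4 shared Slco3a1 among the 3 nearest (r = 0.99). In the ganglia, nearest to the downstream Artn probe were the olfactory receptors Or6a2 and Or4x11c and Ankk1 (r = 0.98), and nearest to Pspn were Tm6sf2, Ambn, an enamel protein, and Ffar3 (r = 0.98).

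Markers of the tissues and of other cells were read beside these results. All 7 Schwann cell markers were well above background on every array, and their mean level in the nerve went from 5.85 to 6.15 at 0 d to 4.72 to 4.91 at 7 d. At 7 d Mbp and Prx were among those called lower. The 7 measured markers of sensory neurons had mean levels of -2.24 to -1.95 in the nerve and of 5.40 to 5.43 in the ganglia at 0 d, and Scn11a was not detected on any nerve array of 0 d. In the nerve 2 of them were called higher at 1 d, the sodium channels Scn10a and Scn11a, and Scn10a alone on the later days, while 1, 2, 3 and 4 of them were called lower at 1, 4, 7 and 14 d, Isl1 on each day. Of all tested probes in the nerve, 22.1%, 22.7%, 24.9% and 19.8% were called on these days, in either direction. In the ganglia the median changes of the neuron markers were -0.30, -0.47, -0.27 and -0.38. All 6 leukocyte markers rose in the nerve at 1 d and 4 d (22.1% and 22.7% of all probes were called), with median changes of 1.55 and 2.04, and 5 of them at 7 d and 14 d (24.9% and 19.8%). In the ganglia 3, 4 and 3 of the 6 rose at 4, 7 and 14 d (6.55%, 6.91% and 13.5% of all probes were called), with median changes of 0.99, 1.40 and 1.08. The 6 skeletal muscle markers spread from 3.59 to 7.63 over the nerve arrays of 0 d and fell at 4 d and 7 d (median -4.73 and -3.30), with median changes of -0.57 and -0.86 at 1 d and 14 d. The part of these cells in the changes of the family was not tested. Probes well above background numbered 26914 to 35541 per array, the 2 lowest being DRG 0 d replicates 2 and 3, and replicate arrays correlated at r = 0.98 to 1.00. Within a tissue each slide held arrays of 1 day, and all 0 d arrays were in a scan of their own, so that slide or scan and day cannot be told apart there.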

How the data were processed

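RNA of 30 samples, 3 per tissue and day, was hybridised to Agilent whole-genome rat arrays with Cy3 as the single dye. The authors read the intensity of each spot with Agilent Feature Extraction (version 10.5.1.1 per the submitters' processing notes), and per the file headers the processed intensity was background-subtracted and detrended by that program. The log2 values of the authors' deposited matrix have the same distribution on all arrays and served as an alternative. They were made from the same arrays and quantile-normalized, as far as the values show.

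From the processed intensity, outlier and control spots were left out, log2 values of repeat spots were averaged per probe, and the 75th percentile of each array was subtracted. A probe was tested where every array of at least 1 day showed it well above background, 35157 in the nerve, 34968 in the ganglia and 36329 in the fits of both tissues with limma (3.58.1) in R 4.3.3, helped by statmod (1.5.0) and data.table (1.17.8). A probe was called at an adjusted p (Benjamini-Hochberg, over all tested probes) under 0.05 and more than 2-fold change. This held between the tissues at 0 d too, whereas tissue differences in the change since 0 d needed the adjusted p alone. For a probe not well above background in a group, the change is an approximate bound against the lowest signal well above background on each array. The fits were tested on simulated data. Alternatives were the 75th percentile over probes well above background on all arrays, quantile normalization, normexp background correction (offset 50) and the deposited values. Other filters, the methods' t-test, blocks and leaving out arrays were also used. Precision is limited by 3 arrays per group.

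All probes of the 9 genes are reported, each on its own. Of the pathway and marker lists, called genes are named, with 1 probe per gene, and some genes are not reported here. The members and lists were chosen with earlier results of these data known. Probe positions are those of the array annotation (rn4), and promoters and updated symbols are from RefSeq (GRCr8).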

Additional observations from a re-analysis of the deposited data

Results flagged for a closer look

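Changes since 0 d that differed between nerve and ganglia are given here as nerve minus ganglia on the log2 scale, from the interaction in limma with an adjusted p under 0.05. At 1 d the fitted difference was 5.49 for the downstream Gdnf probe, whose ganglion values lay in the background. The difference was -1.21 for Nrtn (adjusted p = 0.000466), 0.52 for the downstream Gfra3 probe (0.0113), -0.93 for Gfra4 (0.0111), -1.30 for Ret 3 (5.56e-07) and -1.44 for Ret 4 (1.20e-05). At 4 d it was 3.77 for the downstream Gdnf probe, -1.79 for Nrtn, 1.15 for the upstream Artn probe (adjusted p = 0.045), -0.59 for the downstream Gfra1 probe (0.00812), -1.96 for Ret 3 and -2.0 for Ret 4. The values of 7 d were 1.21 for the upstream Gdnf probe (adjusted p = 0.00241), 3.73 for the downstream one, -1.87 for Nrtn, 0.90 for Gfra2, 3.17 and 2.97 for the upstream and downstream Gfra3 probes, -2.05 for Ret 3 and -2.26 for Ret 4. Those of 14 d were 2.35 for the downstream Gdnf probe, -2.45 for Nrtn, -0.74 and -0.73 for the upstream and downstream Gfra1 probes, 1.08 for Gfra2, 3.85 and 3.69 for the Gfra3 probes, -0.77 for Ret 2 (adjusted p = 0.0285), -2.23 for Ret 3 and -2.61 for Ret 4.

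The downstream Gdnf probe was not well above background on any ganglion array, so its difference holds no measured change in the ganglia. Its ganglion mean went from -7.81 at 0 d to -8.82 at 1 d within the background. The fitted difference at 1 d is therefore larger than the change of 4.47 in the nerve, and its p-values are not given. Gfra4 was well above background on 1 of the 3 ganglion arrays of 0 d, so its difference at 1 d rests on values near background. The difference of the upstream Artn probe at 4 d lay at the threshold and missed it when any of 10 of the 12 arrays was left out, with values from 0.63 (without DRG 0 d replicate 3, an array at -4.42 beside -5.96 and -5.99) to 1.22. It also missed it after normexp correction, without the filter on dim probes and with slide as a block. The downstream Gfra3 probe at 1 d missed the threshold with quantile normalization, both normexp settings and the deposited log2 values. The downstream Gfra1 probe at 4 d missed it with quantile normalization and the deposited values. With slide as a fixed term, Nrtn, the downstream Gfra3 probe and Gfra4 at 1 d, the downstream Gfra1 probe at 4 d and 14 d, the upstream Gdnf probe at 7 d, and the downstream Gdnf probe and Ret 2 at 14 d missed the threshold too. Ret 2 at 14 d missed the threshold when any of 5 arrays was left out, DRG 0 d replicate 3, SN 0 d replicate 1, DRG 14 d replicate 2, or SN 14 d replicate 1 or 2, with values from -0.75 to -0.68.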

How the results depend on the processing

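Of 75 calls, quantile normalization kept 72, the percentile over well-detected probes 73, the deposited log2 values 71, no filter 74, kept outlier spots 75 and slide as a random block 73. Normexp correction kept 62 with quantile normalization and 57 with the 75th percentile. Under the latter, 13 further calls were lost and 5 more changed sign without being called. Those 5 were Ret 2 in the nerve at 14 d (0.032) and the downstream Gdnf probe from 7 d to 14 d (0.57). The others were its nerve minus ganglia difference at 4 d (-0.080) and 14 d (-0.039), and that of Ret 2 at 14 d (0.33). The cause was not tested. Successive days in the nerve gave 2 calls under either normexp setting instead of 4, the ganglia at 14 d gave 1 instead of 3 with normexp and quantile normalization, and tissue differences at 1 d numbered 3 instead of 6 with normexp and the 75th percentile and 3 with slide as a fixed block. Without DRG 0 d replicates 2 and 3, the ganglia gave 1 call at 1 d instead of 0, 1 at 4 d instead of 3 and 3 at 7 d instead of 2, the downstream Artn probe being added at 1 d (1.17) and 7 d (1.23), with the lone 0 d array assumed to vary like the other groups. This and the slide block were chosen after seeing the data. Leaving out 1 array gave 0 to 1 calls in the ganglia at 1 d (the downstream Artn probe without DRG 1 d replicate 3, 1.11) and 0 to 2 between successive days there (without DRG 4 d replicate 1, the upstream Gdnf probe at 1.09 and the downstream Gfra1 probe at 1.03, and without DRG 1 d replicate 3 the former at 1.01). The methods' t-test kept 45 of 45 calls unadjusted and 43 after adjustment. Within a tissue, arrays with the same replicate number on different days were compared by their deviations from the group means. These correlated from -0.25 to 0.20 in the nerve and from -0.33 to 0.32 in the ganglia. Whether nerve and ganglion arrays of the same day and number are paired was not examined. With a replicate block within each tissue, 75 of 75 calls were kept. The counts stayed at 4, 5, 7 and 9 in the nerve and 0, 3, 2 and 3 in the ganglia. Signal over background limits the downstream Gdnf probe, which was not well above background on any ganglion array or any nerve array of 0 d.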
